A study of Mus musculus with 5 samples.

Results

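Cells from foreign body granulomas around silk at 4 weeks were compared with those at 2 weeks inside the subclusters that the authors had assigned to monocytes and macrophages (C labels), fibroblasts (F labels) and neutrophils (N labels). A subcluster entered the comparison when both silk libraries held at least 50 of its cells. That left 8 subclusters, C3, C6, C7, C9, F1, F2, N1 and a fibroblast label named low quality, with 9779 of the 12104 silk cells and of the 41191 cells in all 5 libraries. The silk groups were Silk_2 wks and Silk_4 wks, mouse tissue with 1 library each. A matched pair of sponge libraries is quoted beside them. The library titled Control, of thioglycollate-elicited macrophages with other cells among them, enters only as a reference level for a few transcripts. The labels name no strain, sex, age, allele, number of animals or site of the silk, so a library may hold 1 animal or several.

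A foreign body granuloma is the nodule that forms around material the body cannot clear. Blood monocytes enter it and become macrophages, some of which fuse around the material, while neutrophils persist and fibroblasts lay down a collagen capsule. Macrophages in such tissue take up debris and iron, present antigen on MHC class II and release proteases, and the fibroblasts range from contractile, matrix-building cells to quieter cells rich in complement and matrix-binding proteins.

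The 2-week library held 10231 cells with 63570615 unique molecular identifiers (UMIs, 1 per captured transcript), and the 4-week library 1873 cells with 11207419. Median UMIs per cell were 4201 and 3818, and 4 cell barcodes occurred in both. Because each time point was 1 library, no test was possible, and every interval below covers counting error only. Values are UMIs summed over a subcluster's cells in a library and scaled to a total of 1000000 (CPM). A gene was measured in a subcluster when it had at least 50 UMIs over both libraries and at least 50 CPM in the higher one. Log2 ratios are 4 over 2 weeks with 10 CPM added to both values, which draws low genes toward 0, and only genes past 2-fold on that scale are called higher or lower.

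The labels were checked against defining markers. Subclusters C6 and C7 held all 8 macrophage markers in both libraries, summing to 3394 and 4497 CPM in C6 and to 3276 and 4156 CPM in C7. Subcluster C3 was richest in monocyte markers, with 8089.8 CPM at 2 weeks and 6942 CPM at 4 weeks. Subcluster C9 held all 8 dendritic cell markers at 3953 and 5026 CPM, and of 9 mast cell markers only Kit was present there, at 67.0 and 77.1 CPM. All 8 fibroblast markers were present in F1, F2 and the low-quality label, and N1 held 8 neutrophil markers at 2 weeks and 7 at 4 weeks.

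The makeup of the classes differed between the libraries, most of all among fibroblasts. F1 was 11.1% of labelled fibroblasts at 2 weeks and 45.7% at 4 weeks, 34.6 percentage points more (95% interval 28.4 to 40.7). F2 was 48.3% at 2 weeks and differed at 4 weeks by -27.3 points (interval -32.7 to -21.2), while the low-quality label was 12.3% and then 22.5%. Among monocytes, macrophages and dendritic cells, C7 was 59.2% and then 44.8%, C3 5.32% and then 11.5%, and C9 2.42% and then 5.52%. C6 stayed near 28.6%, at 28.5% at 4 weeks, and N1 was 72.7% and then 79.7% of neutrophils, with a difference of 7.07 points and an interval of -3.85 to 15.3. As a share of all cells of the library N1 went the other way, from 5.84% to 3.15%, a difference of -2.69 points (interval -3.54 to -1.70).

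In the summed counts, changes were less frequent in C3, C6 and C7 than in the other compared subclusters. For C6 this depended on weighting, since it had 112 calls and 234 with every cell weighted equally. In C7, 28 of 3075 measured genes were higher at 4 weeks (0.911%) and 25 lower (0.813%). C3 had 23 of 3183 higher (0.723%) and 28 lower (0.88%), and C6 had 34 of 3294 higher (1.03%) and 78 lower (2.37%). The dendritic C9 had 74 of 3050 higher (2.43%) and 168 lower (5.51%). Among fibroblasts, F1 had 167 of 3342 higher (5%) and 169 lower (5.06%), and F2 193 of 3635 higher (5.31%) and 152 lower (4.18%). The low-quality label had 53 of 673 higher (7.88%) and 110 lower (16.3%), and N1 had 87 of 1854 higher (4.69%) and 162 lower (8.74%). These last 2 rest on 64399 and 66727 UMIs at 4 weeks, where 3 UMIs already stand for 46.6 and 45.0 CPM. Only 157 of the 249 N1 calls had a counting interval that left out no change, and with the 2-week library thinned to the 4-week depth N1 had 32 calls and the low-quality label 79.

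**Figure D1:**
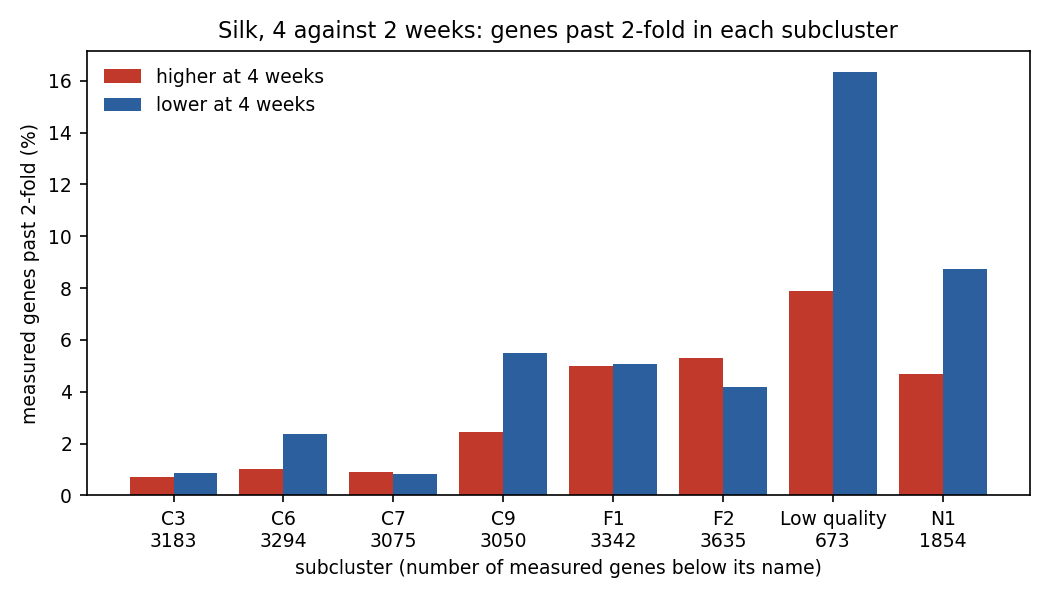
Share of measured genes (vertical axis, percent) past 2-fold higher (red) or lower (blue) at 4 weeks in each subcluster, 1 library per time, with the number of measured genes under each name. C3, C6 and C7 stay at or under 2.37% in each direction, and the low-quality label reaches 16.3% lower.

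Few genes passed 2-fold in several subclusters, though most could not be measured in all. Of 5572 genes measured in at least 1 subcluster, 1185 passed 2-fold somewhere, 950 of them in exactly 1 subcluster, and 56 passed it in opposite directions in different subclusters. Of the 385 genes measured in all 8, none was 2-fold higher in all and 5 were 2-fold lower in all. A shared sign was more common, with 21 genes higher and 46 lower in every subcluster.

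Among the transcripts lower everywhere were AY036118, Gm42418, Lars2 and Gm10076. AY036118 went from 211 to 6.69 CPM in C7, from 491 to 13.7 CPM in C3, from 427 to 11.9 CPM in C9 and from 215 to 15.9 CPM in F1. Its log2 ratios ran from -4.84 in N1 to -2.87 in F2. Gm42418, one of the most abundant transcripts, went from 9147 to 2269.5 CPM in C7 and from 8417 to 2542 CPM in F2, with ratios from -2.78 to -1.40. Lars2, a mitochondrial leucyl-tRNA synthetase, went from 449 to 46.8 CPM in C3 and from 425 to 157 CPM in F2, with ratios from -3.31 to -1.38. Gm10076 went from 1454 to 175 CPM in F2 and from 877 to 212 CPM in C7. Gm42418 and Gm10076 fall outside the naming rule and were chosen after their values were seen.

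These 4 transcripts were lower at 4 weeks outside these subclusters too. In endothelial cells Lars2 went from 679 to 249 CPM and AY036118 from 363 to 11.8 CPM, and in NK and T cells Lars2 went from 606 to 50.3 CPM. In the sponge libraries AY036118 was lower by log2 ratios of -3.90 to -2.72 over the same 8 subclusters and Lars2 by -3.68 to -1.21, while Gm10076 ranged from -1.36 to -0.06. Over whole libraries AY036118 stood at 189.5 CPM in Control, where 87.5% of the cells were labelled monocytes, macrophages or dendritic cells. It stood at 291 and 24.9 CPM in sponge at 2 and 4 weeks, and at 248 and 9.64 CPM in silk. In the GENCODE M21 annotation of GRCm38, Gm42418 (chr17:39846958-39848788, plus strand) lies inside the rRNA gene CT010467.1 (chr17:39846353-39848827, minus strand), sharing 1831 bases. AY036118 (chr17:39847113-39848035, minus strand) shares 923 bases with both of them. Gm10076 (chr14:105681828-105682211) and Lars2 (chr9:123366927-123462666) overlap no annotated gene. How rRNA, overlapping genes or library preparation bear on these 4 was not tested.

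Below 2-fold, mt-Atp8, a mitochondrial ATP synthase subunit, was at least 1.5-fold lower in all 8. Hif1a, the oxygen-regulated subunit of the hypoxia factor HIF-1, had a negative ratio in all 8. It went from 589 to 212 CPM in C7 (-1.43), from 883 to 346 CPM in C6 (-1.33), from 265 to 80.1 CPM in C9 (-1.61) and from 698 to 199 CPM in F2 (-1.76). In F1 its ratio was -0.75, and in N1 -0.50 with an interval that included no change. Sponge Hif1a ratios lay between -1.32 and 0.00. The list of glycolysis and hypoxia genes varied more between subclusters. Its median was -0.28 in C7 with 0 of 24 counted members past 2-fold, -0.55 in C6 with 2 of 24 lower, -1.01 in the low-quality label with 8 of 14 lower, and 0.04 in F1 with 2 of 23 higher.

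Genes with a positive ratio in all 8 subclusters were led by immediate early genes, which cells switch on within minutes of a stimulus, dissociation included. The 12 taken by rank were Klf2, Cst3, Jun, Btg2, Malat1, Jund, Fosb, Dusp1, Tra2a, Fos, Npc2 and Nfkbia. Btg2, an antiproliferative immediate early gene, passed 2-fold in 5 subclusters. It went from 105 to 349 CPM in C6 (1.64), from 60.3 to 147 CPM in C7 (1.16), from 491 to 1184 CPM in F1 (1.25) and from 1892 to 3837 CPM in N1 (1.02). Fosb, an AP-1 subunit, passed it in 4, as in C3 from 302 to 773 CPM (1.33), but its ratio was 0.16 in F2. Klf2, a shear- and quiescence-linked transcription factor, passed it in C6 and in F2, from 350.1 to 1045 CPM (1.55) in the latter. Dusp1, a MAP kinase phosphatase, passed it in none, with ratios of 0.16 to 0.90.

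The whole list of 20 dissociation and immediate early genes had a positive median in all 8, from 0.16 in F2 to 0.57 in C6, against medians of -0.16 to 0.05 over all genes. At most 4 of its members were past 2-fold higher in a subcluster. Its members Hspa1a and Hspa1b went the other way in fibroblasts, at least 1.5-fold lower in F1, F2 and the low-quality label. The list's median was 0.54 in endothelial cells and 0.65 in NK and T cells, and in sponge from 0.25 in C6 to 1.21 in N1. The handling of the tissue at each time is not in the labels, and its part in these genes was not tested. Malat1, an abundant nuclear RNA, had a positive ratio in all 8 and passed 2-fold in F2 and C7, from 11442 to 32581 CPM in F2 (1.51) and from 8158 to 18061 CPM in C7 (1.15), whereas its sponge ratios were -1.41 to 0.30.

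**Figure D2:**
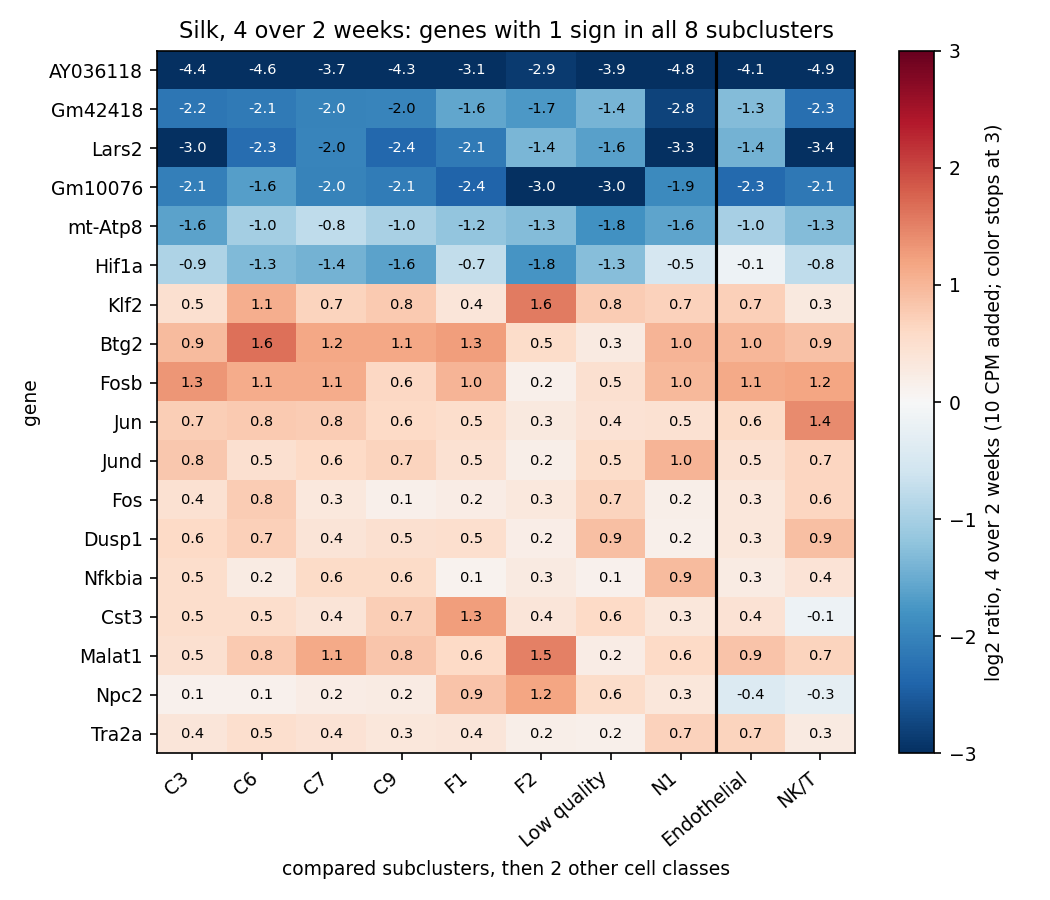
Log2 ratio of 4 over 2 weeks in silk (10 CPM added; blue lower, red higher, color stops at 3) for genes with 1 sign in all 8 compared subclusters, 1 library per time, with endothelial cells and NK and T cells to the right of the line. AY036118 lies at or below -2.87 in all 8 subclusters, and Btg2 runs from 0.27 to 1.64.

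The promoters of these 12 genes, chosen by their shared positive sign, were read from RefSeq (GRCm38.p6, 250 bases before to 50 after the start). All 12 had a window, but that of Jund (chr8:70697489-70697788, plus strand) ends before the gene's start in GENCODE M21 (70698949). The cyclic AMP response element TGACGTCA, which reads the same on both strands, occurred in 3 of the 12 windows (25%) and in 588 of all 32851 windows (1.79%). The AP-1 element TGAGTCA, searched on both strands, was in none of the 12 and in 5.20% of all windows, and the CArG box in none and in 1.63%. The full set of windows covers 27025 genes, some with several windows, and was not limited to genes measured here. Its shares are thus no matched background, and an excess or lack in the 12 was not tested. The 3 windows with the response element are shown in the 5′ to 3′ direction of the gene, with the element in capitals. A match describes these letters only, and distal sites lie outside the windows.
Btg2, chr1:134079106-134079405, minus strand: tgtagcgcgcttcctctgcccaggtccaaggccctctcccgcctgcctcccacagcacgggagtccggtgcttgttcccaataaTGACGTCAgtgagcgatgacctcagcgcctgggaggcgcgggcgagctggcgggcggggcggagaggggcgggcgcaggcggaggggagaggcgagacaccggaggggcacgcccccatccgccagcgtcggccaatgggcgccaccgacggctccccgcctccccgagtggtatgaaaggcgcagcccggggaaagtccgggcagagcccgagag
Dusp1, chr17:26508423-26508722, minus strand: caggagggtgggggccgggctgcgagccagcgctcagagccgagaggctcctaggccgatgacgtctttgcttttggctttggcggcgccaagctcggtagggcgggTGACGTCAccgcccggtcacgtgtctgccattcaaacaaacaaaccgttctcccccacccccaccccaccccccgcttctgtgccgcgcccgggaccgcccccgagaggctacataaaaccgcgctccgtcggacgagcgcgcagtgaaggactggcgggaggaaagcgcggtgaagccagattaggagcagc
Tra2a, chr6:49264003-49264302, minus strand: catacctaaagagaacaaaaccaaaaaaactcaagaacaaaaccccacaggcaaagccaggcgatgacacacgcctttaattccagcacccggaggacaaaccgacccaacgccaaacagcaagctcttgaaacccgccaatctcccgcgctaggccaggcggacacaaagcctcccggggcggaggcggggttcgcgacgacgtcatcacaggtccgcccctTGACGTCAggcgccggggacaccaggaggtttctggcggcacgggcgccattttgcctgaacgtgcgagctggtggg
Beside these sequences, Btg2 passed 2-fold in 5 of the 8 subclusters and Dusp1 and Tra2a in none.

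In the 4 myeloid subclusters, 2213 genes were measured in all. None was 2-fold higher in all 4, and 6 were lower, the 5 lower everywhere and Ccr1. Ccr1, a receptor for inflammatory chemokines, went from 194 to 82.0 CPM in C3, from 201 to 69.8 CPM in C6, from 117 to 51.1 CPM in C7 and from 72.1 to 0 CPM in C9. In C9 a count of 0 makes this at least 8.11-fold lower. Ccr1 was lost from this set with an offset of 50 CPM, a minimum of 200 CPM, centring on the median, cells weighted equally, the 10% of cells with most UMIs left out, the deeper library thinned, or a minimum of 30 cells, which adds C5. Past 2-fold in most of the 4 were Cebpb, a transcription factor of inflammatory myeloid cells, and Il1rn, the interleukin-1 receptor antagonist. Cebpb went from 2405 to 918 CPM in C7 (-1.38), from 3874 to 1607 CPM in C6 (-1.26) and from 3627 to 1936 CPM in C3 (-0.90). Il1rn went from 1289 to 628 CPM in C6 (-1.03), from 171 to 66.4 CPM in C3 (-1.24) and from 440.0 to 47.4 CPM in C9 (-2.97), with -0.90 in C7. Hmox1, the heme-degrading enzyme, went from 1426 to 344 CPM in C6 (-2.02) and from 1326 to 368 CPM in C7 (-1.82), with -0.65 in C3. Red cell RNA was lower too in C6 and C7, where the 5 erythroid genes summed to 251 and 1.59 CPM and to 116 and 2.80 CPM. These sums were 5.62 and 0 CPM in C3 and 1.03 and 0 CPM in C9, where Hmox1 was also at least 1.5-fold lower. The part of red cell RNA in the Hmox1 values was not tested.

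Several MHC class II genes were higher in C3, C6 and C7, and none passed 2-fold in C9. Cd74, the invariant chain, went from 1590.0 to 4876 CPM in C3 (1.61), from 4596 to 12844 CPM in C6 (1.48) and from 2101 to 5091 CPM in C7 (1.27), and from 13270.3 to 15553 CPM in C9 (0.23). H2-Eb1, a beta chain, went from 243 to 636 CPM in C3 (1.35), from 1761 to 4388 CPM in C6 (1.31) and from 653 to 1487 CPM in C7 (1.17), with -0.15 in C9. The counted members of the list were all above 0 in C3, C6 and C7, with medians of 1.08, 0.93 and 0.88, and 4 of 8, 4 of 9 and 2 of 9 were past 2-fold. The median was -0.08 in C9.

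Endothelial, NK and T cells had lower levels at 4 weeks, and the list's median was 0.41 in F2 with 0 of 6 past 2-fold. In endothelial cells Cd74 went from 316 to 15.4 CPM, and in NK and T cells from 941 to 405 CPM. Dendritic cell markers summed to 22.2 and 17.4 CPM in C6, to 7.13 and 9.92 CPM in C7 and to 78.7 and 66.4 CPM in C3. B cell markers went from 11.3 to 82.5 CPM in C6 and from 5.42 to 27.0 CPM in C7, mostly as Ighm, which went from 7.89 to 66.6 CPM and from 3.59 to 23.9 CPM. The defining B cell genes Cd79a, Ms4a1 and Pax5 had 0 UMIs at 4 weeks in both. In sponge the Cd74 ratios were 1.15 in C3, 0.39 in C6 and 0.44 in C7.

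C6 and C7 shared further large changes. Retnla, a marker of alternative activation, went from 37.9 to 704 CPM in C6 (3.90) and from 21.3 to 424 CPM in C7 (3.79), with counting intervals of 3.96 to 4.47 and 4.19 to 4.44 for the ratio without the added CPM. Its UMIs were concentrated, since the 29 of 496 C7 cells with at least 10 of them held 97.8% of them at 4 weeks and 1 cell held 34.1%. In sponge its ratios were -0.83 and -0.06. Lyz1, a lysozyme, went from 174 to 1461 CPM in C6 (3.00) and from 633 to 3073 CPM in C7 (2.26). Mfge8, a bridge for engulfing dying cells, went from 166 to 1038 CPM in C7 (2.57), and Tmem176b from 17.8 to 93.0 CPM (1.89).

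On the lower side in C6 and C7 stood Arg1, the arginase of wound macrophages, and the matrix proteoglycan Vcan. Arg1 went from 418 to 44.4 CPM in C6 (-2.98) and from 335 to 56.9 CPM in C7 (-2.37). Vcan went from 332 to 85.7 CPM in C6 (-1.84), from 119 to 19.2 CPM in C7 (-2.14) and from 259 to 113 CPM in C3 (-1.12). Retnla and Arg1, both usually named as alternative activation genes, differed in sign within the summed counts of the same subclusters, and that list's medians were -0.07 in C6 and -0.02 in C7. Spp1, or osteopontin, went from 3239 to 627 CPM in C6 (-2.35) but only from 4615 to 3353 CPM in C7 (-0.46). Slpi, a protease inhibitor, went from 219.7 to 44.4 CPM in C6 (-2.08) and from 366 to 318 CPM in C7 (-0.20). Median UMIs per C6 cell were 1652 at 2 and 948 at 4 weeks, and the part of that in the C6 values was not tested.

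**Figure D3:**
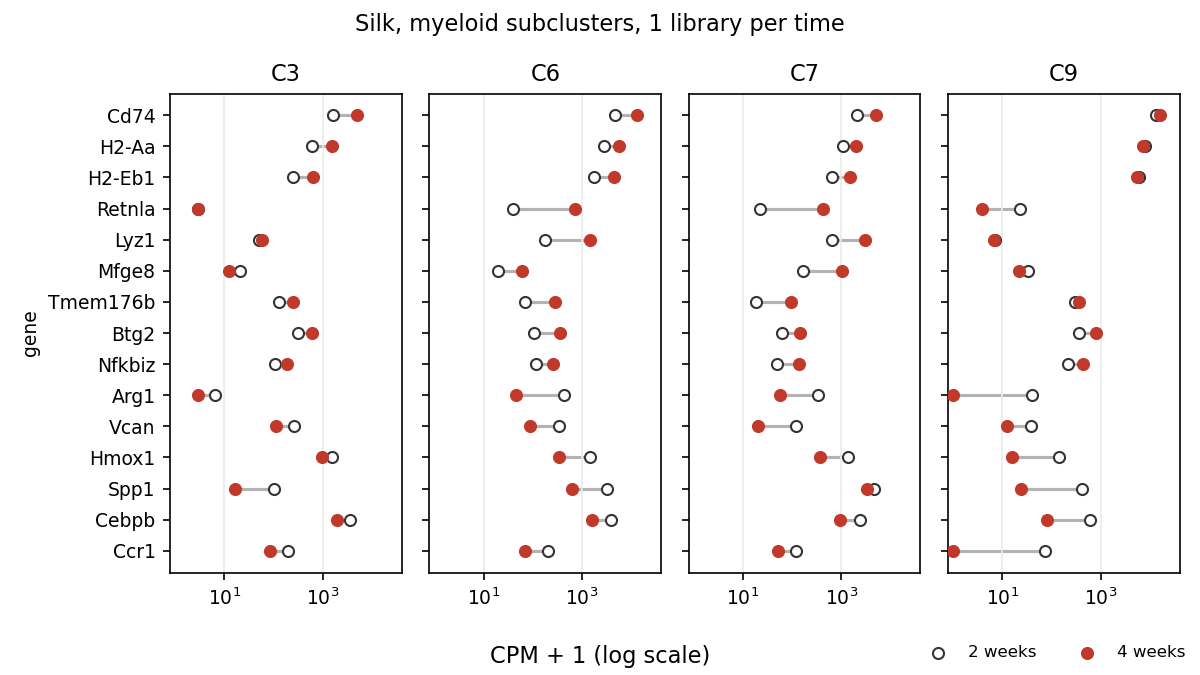
Level of 15 genes (CPM + 1, log axis) in the 4 myeloid subclusters of silk at 2 weeks (open) and 4 weeks (filled), 1 library per time. Cd74 lies to the right at 4 weeks in C3, C6 and C7, Retnla moves in C6 and C7, and Arg1 and Ccr1 in C9 reach 0 CPM.

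The monocyte-rich C3 added Hes1, a Notch target, from 53.1 to 169.8 CPM (1.51), and Traf1, an NF-kappaB-induced adaptor, from 61.2 to 189 CPM (1.48). Dmkn went from 93.1 to 11.7 CPM there (-2.25). In sponge the same 3 genes had ratios of 1.17, 0.34 and -2.46.

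In the dendritic C9, genes of several macrophage lists were lower. Of 17 counted alternative activation genes 10 were lower and 1 higher, with a median of -1.29, and of 7 matrix remodelling genes 5 were lower and none higher, with a median of -1.66. The highest ratios belonged to single genes of different kinds. Il12b, a subunit of interleukin-12 and interleukin-23, went from 97.9 to 498 CPM (2.24), with 54.8% of the 4-week UMIs in 1 of 61 cells. Clu went from 26.8 to 243 CPM (2.78), Col27a1 from 9.27 to 142 CPM (2.98) and Apol7c from 10.3 to 125 CPM (2.73). Cxcl9 went from 2.06 to 294 CPM (4.65) and Cxcl10 from 48.4 to 341 CPM (2.59), both interferon-induced chemokines. For these 2 the change was that of 1 cell, which held 96.0% of the Cxcl9 and all of the Cxcl10 UMIs at 4 weeks. Without the cell richest in it at each time, the Cxcl10 ratio was -1.23, and the type I interferon list was lower in C9, with a median of -1.08 and 8 of 15 counted members past 2-fold lower and 1 higher.

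Lower in C9 were Apoe, from 148 to 5.93 CPM (-3.31), Spp1, from 407 to 23.7 CPM (-3.63), and Ly6a, from 104 to 2.97 CPM (-3.14). Ccl24, an eosinophil chemokine, went from 182 CPM to 0, at least 20.5-fold lower. Macrophage markers moved with these genes in C9, from 642 to 249 CPM. They were also lower in cells that are not macrophages, from 361 to 124 CPM in endothelial cells, where Lyz2, a lysozyme of macrophages and neutrophils, went from 1192 to 46.2 CPM. The part of RNA from other cells in the C9 values was not tested.

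In the 3 fibroblast labels, 667 genes were measured in all, of which 4 were higher in each and 9 lower. The 4 higher were Mmp3, a matrix protease, Gsn, the actin-severing gelsolin, Timp2, a protease inhibitor, and Il11ra1, the interleukin-11 receptor. Mmp3 went from 236 to 3029.7 CPM in F1 (3.63) and from 263 to 594 CPM in F2 (1.14), where its sponge ratio was -1.29 and its silk ratio was 0.95 without the cell richest in it. In the low-quality label Mmp3 went from 62.6 to 606 CPM (3.08). Gsn went from 4047 to 8742 CPM in F1 (1.11) and from 611 to 2822 CPM in F2 (2.19). Il11ra1 went from 209 to 575 CPM in F1 (1.42) and from 197 to 462 CPM in F2 (1.19), and Timp2 from 1112 to 2279.8 CPM (1.03) and from 559 to 1513 CPM (1.42).

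Beside the 5 transcripts lower everywhere and mt-Atp8, the fibroblasts shared lower Col12a1, a fibril-associated collagen, Loxl2, a collagen crosslinker, and Tm4sf1, a membrane protein. Col12a1 went from 526 to 81.3 CPM in F1 (-2.55) and from 830.1 to 183 CPM in F2 (-2.12). Tm4sf1 went from 531 to 73.7 CPM in F1 (-2.69) and from 509 to 122 CPM in F2 (-1.97). Loxl2 went from 708 to 282 CPM in F1 (-1.30) and from 1356 to 604 CPM in F2 (-1.15). Postn, or periostin, went from 3808 to 1273 CPM in F1 (-1.57) and from 2145 to 864 CPM in F2 (-1.30), and had -0.97 in the low-quality label. These shared fibroblast calls depended on the cells used. Gsn, Timp2 and Loxl2 were lost with cells weighted equally, and Mmp3, Il11ra1, Col12a1, Tm4sf1 and mt-Atp8 with cells above 10% mitochondrial left out. The median mitochondrial share of the low-quality label was 5.19% at 2 weeks and 7.56% at 4 weeks. With F1 and F2 alone, 16 of 2960 genes were higher and 41 lower in both.

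F1 showed the clearest change in secreted defence genes. C4b, a complement component, went from 204 to 1328 CPM (2.64), and Serping1, the C1 inhibitor, from 1199 to 3987 CPM (1.72). Of 9 counted complement genes in F1, 7 were higher and 1 lower, with a median of 1.35 against -0.15 over all genes. The low-quality label was similar in sign, with a median of 1.05 and 4 of 8 higher, C4b among them from 99.1 to 885 CPM (3.04). The same list had medians of 0.09 in F2 and 0.03 in sponge F1. In F2 Cfb, or factor B, went the other way, from 153 to 45.1 CPM (-1.56), while in F1 it went from 252 to 648 CPM (1.33). Inmt, a methyltransferase, went from 8.95 to 389.6 CPM in F1 (4.40), Pcolce2, a collagen-processing enhancer, from 33.1 to 349 CPM (3.06), and Sult1e1, the estrogen sulfotransferase, from 0 to 85.5 CPM, at least 31.8-fold higher.

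Genes of contractile and wound fibroblasts were lower in F1. Tnc, or tenascin C, went from 391 to 8.38 CPM (-4.45), Ptn from 649 to 31.0 CPM (-4.01) and Tpm2, a tropomyosin, from 92.2 to 7.54 CPM (-2.54). Serpinb2 went from 153 CPM to 0, at least 60.9-fold lower. Of 10 counted contractile genes in F1, 5 were lower and none higher, with a median of -1.06. In F2 the list's median was -0.80 with 1 of 11 lower, and Tnc went from 867 to 465 CPM (-0.89). Endothelial markers in F1 went from 186 to 28.5 CPM alongside, and their part was not tested.

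Several of the highest ratios in F2 rested on few cells. Adamts8, a secreted protease, went from 1.90 to 854 CPM (6.18), and the 6 of 58 F2 cells with at least 10 of its UMIs held 97.0% of its UMIs at 4 weeks. Pthlh, parathyroid hormone-like hormone, went from 35.6 to 663 CPM (3.88), with 93.2% of its UMIs in 15 such cells. Pcp4 went from 1.49 to 161 CPM (3.89), with 94.1% in 6 such cells, and Cst6 from 0.812 to 148 CPM (3.87), with 83.3% in 5. Tnfsf11, or RANKL, the ligand that drives osteoclast formation, went from 73.1 to 794 CPM (3.27), and was spread over more cells, with 97.2% of its UMIs in 23 of the 58. Fcgbp, at 0 and then 268 CPM, came from 1 cell for 99.7% of its UMIs. In F1 Pthlh stood at 38.5 and 46.9 CPM and Tnfsf11 at 6.26 and 7.54 CPM. The F2 values at 4 weeks rest on 58 cells with a median of 20751.5 UMIs each, against 14505 at 2 weeks.

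Timp3, a protease inhibitor, went from 658 to 17.5 CPM in F2 (-4.60), while it went from 423 to 187 CPM in F1 (-1.14) and from 224 to 497 CPM in the low-quality label (1.11). Ptx3, a soluble pattern receptor, went from 128 CPM to 0 in F2, at least 58.5-fold lower, and its sponge ratio was -3.07. Tnn went from 387 to 24.7 CPM (-3.52) and Chl1 from 258 to 20.4 CPM (-3.14). All 18 cholesterol synthesis genes had a positive ratio in F2, with a median of 0.98 and 8 past 2-fold, as for Insig1, from 27.2 to 90.9 CPM (1.44), and Sqle, from 24.4 to 68.4 CPM (1.19). That list's medians were 0.39 in F1 and 0.28 in sponge F2. Macrophage markers in F2 went from 189 to 514 CPM and endothelial markers from 22.6 to 156 CPM, and their part in the F2 values was not tested.

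**Figure D4:**
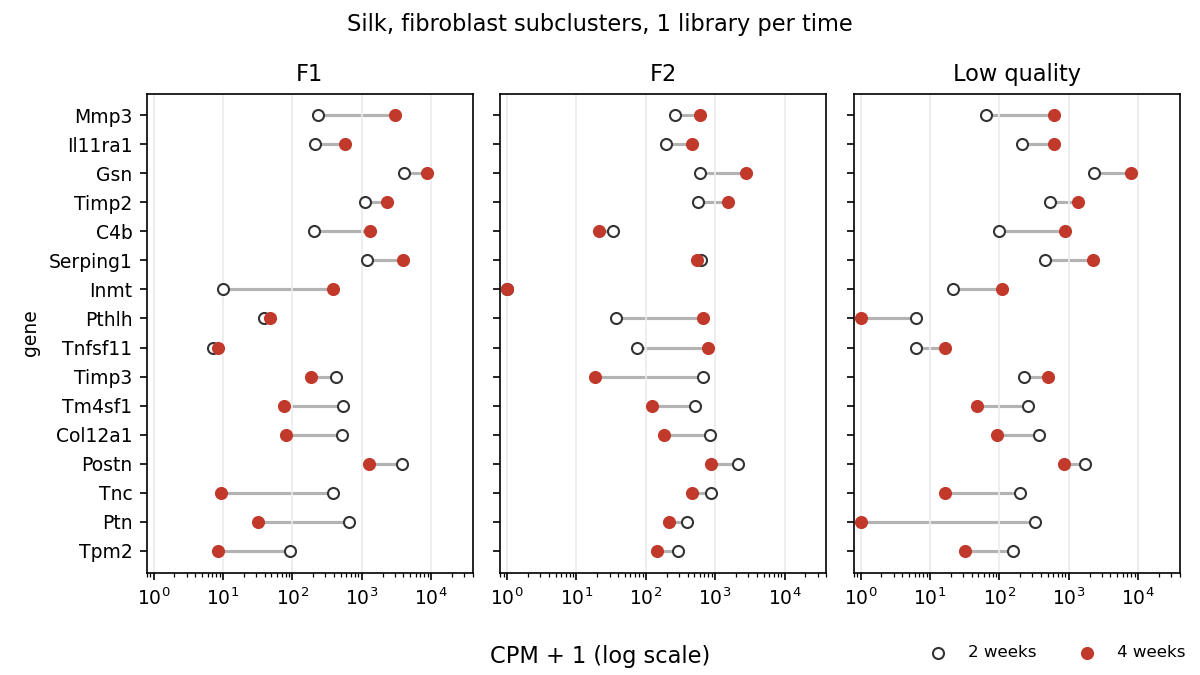
Level of 16 genes (CPM + 1, log axis) in the 3 fibroblast labels of silk at 2 weeks (open) and 4 weeks (filled), 1 library per time. Mmp3, Il11ra1, Gsn and Timp2 lie to the right at 4 weeks in all 3, Inmt is at 0 CPM in F2 at both times, and Tnfsf11 moves from 73.1 to 794 CPM in F2.

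In N1 neutrophils the granule genes S100a8 and S100a9 differed little, from 46041 to 35203 CPM (-0.39) and from 58422 to 47312 CPM (-0.30). The highest ratios were those of low genes, such as Eprs from 45.5 to 239.8 CPM (2.17), which rests on 36 and 16 UMIs and has a counting interval of 1.45 to 3.28. Interferon-induced genes were higher, with Rsad2 from 106 to 345 CPM (1.61), Oasl2 from 130.2 to 345 CPM (1.34) and Isg15 from 557 to 1154 CPM (1.04). Of 11 counted type I interferon genes in N1, 5 were higher and none lower, with a median of 0.58 against 0.05 over all genes. The list's median was -0.60 in C6, -0.28 in C7 and 0.21 in F1. In sponge N1 it was 0.26, against 0.30 over all genes. In silk N1 Il1rn went from 3689.6 to 1469 CPM (-1.32). Spp1 went from 1312 to 135 CPM (-3.19), and Hilpda, a hypoxia-induced lipid droplet protein, from 142 CPM to 0, at least 3.15-fold lower. Spp1 was also lower in endothelial cells, from 255 to 14.5 CPM, and the part of RNA from other cells was not tested.

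Some genes moved in opposite directions in different cells. Apoe, a lipid carrier, went from 82.3 to 500.2 CPM in F1 (2.47) and was lower in C9. Ctsk, the collagen-cleaving cathepsin K, went from 450.2 to 1414 CPM in F1 (1.63) and from 297 to 90.4 CPM in C6 (-1.61), with 0.64 in C7. Plac8 went from 133 to 458 CPM in F1 (1.71) and from 127 to 23.3 CPM in F2 (-2.04), and Ogn, or osteoglycin, from 64.7 to 14.5 CPM in F2 (-1.61) but from 229 to 761 CPM in the low-quality label (1.69). Pltp, a phospholipid transfer protein, went from 43.0 to 159 CPM in F1 (1.68) and from 91.7 to 14.8 CPM in C9 (-2.03).

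To separate composition from change inside subclusters, each class was split into its compared subclusters and 1 pooled stratum of its remaining labels. It was then recomputed with these strata held at the mean of their UMI shares at 2 and 4 weeks. Shares among the pooled labels were not held equal, so shifts there do not count as composition. A class-level change past 2-fold counted as composition when it shrank below 1.5-fold, as within when it stayed past 2-fold in the same direction, and as mixed otherwise. In the monocyte, macrophage and dendritic cell class, 58 of 3127 genes passed 2-fold (1.85%), of which 51 counted as within, 6 as mixed and 1 as composition. The 1 gene was Ccl5, a chemokine, at 27.8 and 91.3 CPM (class 1.42, within 0.54). It was concentrated in C9, at 1039 and 1652 CPM, while C9 went from 2.22% to 5.05% of the class UMIs. The class ratios of Cd74 (1.33), Retnla (3.85) and Arg1 (-2.50) were 1.23, 3.75 and -2.38 at equal shares.

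Fibroblasts had more of both. Of 3553 genes 316 passed 2-fold (8.89%), of which 199 counted as within, 36 as composition and 81 as mixed. F1 went from 8.61% to 43.8% of the fibroblast UMIs, and the labels too small to compare (F3, F4 and KC) went from 33.0% to 3.35%. Among the 17 lower composition genes were Lyz2 and Cybb, held by F4. Lyz2 went from 779 to 113 CPM over all fibroblasts (-2.68) but had -0.15 at equal shares, and F4 held it at 4798 and 8953 CPM, with 117 and 19 cells. That value joins unequal parts, since Lyz2 went from 69.8 to 37.7 CPM in F1, from 114 to 33.5 CPM in F2 and from 359 to 35.7 CPM in F3. Cybb, an NADPH oxidase subunit, had -2.25 and -0.24, with 611 and 964 CPM in F4. The cell cycle genes Top2a and Pclaf had class ratios of -1.99 and -1.87 and 0.22 and 0.46 at equal shares. F3 held Top2a at 375 and 428 CPM, with 119 cells at 2 weeks and 8 at 4 weeks.

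The 19 higher composition genes were mostly those of F1. Pi16, a marker of adventitial fibroblasts, went from 89.8 to 436 CPM over all fibroblasts (2.16) and had 0.57 at equal shares, with 702 and 839.5 CPM inside F1. Hmcn2, a hemicentin, had 1.40 and then -0.04, with 152 and 154 CPM in F1. Clec3b, or tetranectin, had 1.93 and 0.57, and Mmp2, a gelatinase, 1.10 and 0.35. Sfrp4, a Wnt-binding protein, had 1.38 and 0.42, from unequal parts, since it went from 1095 to 638 CPM in F1 and from 118 to 641 CPM in F2. Other composition genes also joined unequal parts. Svep1 went from 107 to 276 CPM in F1 and from 46.8 to 15.3 CPM in F2, and Fbln1 from 239 to 701 CPM and from 117 to 64.0 CPM. Clec3b went from 1519 to 2301 CPM inside F1, so a small value at equal shares does not mean a steady level there. By contrast Mmp3 (class 2.99, within 2.37), Gsn (2.56 and 1.47), Postn (-1.07 and -1.34) and Tnc (-1.59 and -1.29) counted as within.

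**Figure D5:**
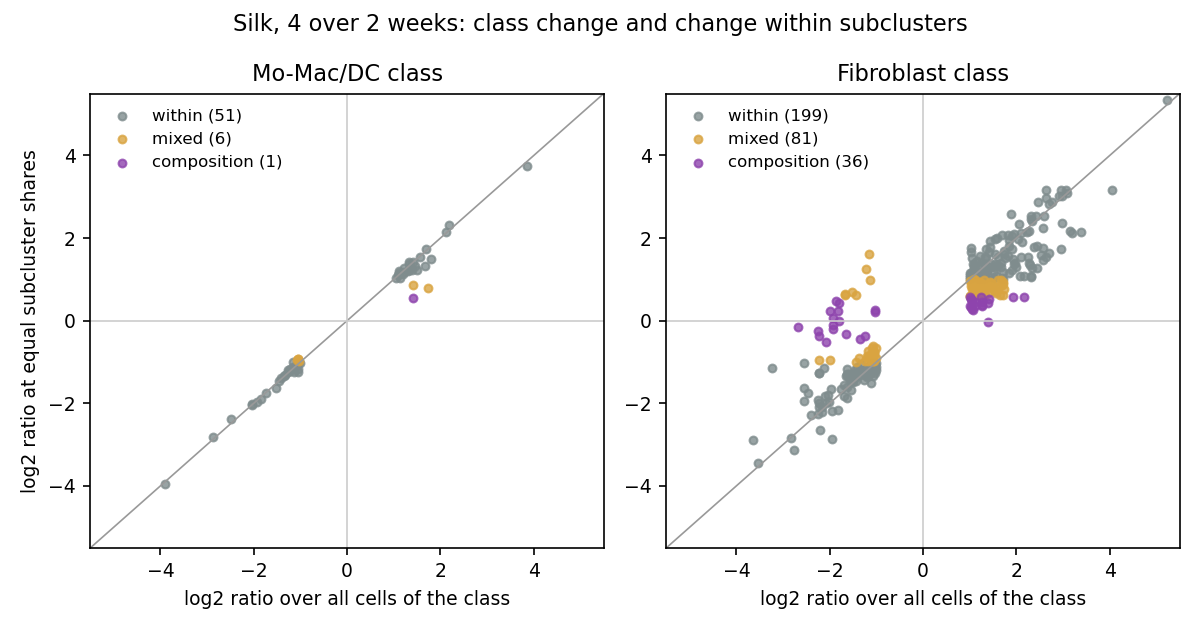
Genes past 2-fold over all cells of a class in silk (horizontal axis, log2 ratio of 4 over 2 weeks) against the same ratio with subcluster shares held equal (vertical axis), 1 library per time. Gray genes count as within, purple as composition and gold as mixed, and the purple genes number 1 of 58 in the monocyte, macrophage and dendritic cell class and 36 of 316 in fibroblasts.

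In neutrophils 448 of 2570 genes passed 2-fold (17.4%), with 337 counted as within, 5 as composition (H2-Ab1, Lgals3, Atp5g3, Rps18 and Rps28) and 106 as mixed. With every label its own stratum, an alternative added after seeing the data, composition accounted for 44 genes. N3 went from 26.4% of the neutrophil UMIs with 59 cells to 3.74% with 1 cell, and only N1, with 59 cells at 4 weeks, could be compared. The class counts rest on 74 neutrophils at 4 weeks and were not repeated at matched depth. N1 itself went from 249 calls to 32 with the deeper library thinned, where fewer genes are measured. The part of counting error in the 448 and 337 was thus not tested. For the whole library the strata were the compared subclusters, the rest of each of their classes, and the NK/T, endothelial, B cell and myocyte classes. Over it 130 of 3498 genes passed 2-fold (3.72%), of which 63 counted as within and 21 as composition. Among the latter, S100a8 had -1.62 over the library and -0.43 at equal shares.

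Silk calls were set beside the sign of the same genes in the sponge pair, where 61.9% of all measured genes were above 0 in C3, 45.3% in F1 and 57.1% in F2. Of the genes called in silk and measured in sponge, 18 of 18 higher and 23 of 25 lower had that sign in C3, 106 of 129 and 121 of 137 in F1, and 96 of 107 and 110 of 130 in F2. In C6 the counts were 17 of 24 and 45 of 75, in C7 15 of 19 and 18 of 21, and in C9 43 of 57 and 106 of 156, with 53.1%, 58.5% and 55.5% of all measured genes above 0. In the low-quality label they were 41 of 53 and 55 of 110, and in N1 49 of 59 and 71 of 142, with 58.3% and 68.5% above 0.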

How the data were processed

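What the authors deposited is a matrix of unnormalized UMI counts (21617 genes, 41191 cells, 5 droplet-based 3' libraries) and a cell table giving library, subcluster label and mitochondrial percent. The submitters' processing notes name Cell Ranger 3.0.0, Seurat 3.0 and mm10 but assign them no steps. Cell filters, doublet handling and the aligner were not given in the sources used here. Among deposited cells the highest mitochondrial share was 25.0% and the fewest detected genes in a cell 201. No doublet caller was run, and leaving out the 10% of cells with most UMIs was tried instead.

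Counts were summed per library and subcluster and scaled to CPM with Python 3.11.15, numpy 2.4.6, pandas 2.3.3 and scipy 1.17.1. Intervals are 95%. For a ratio of counts they are conditional binomial (Clopper-Pearson), and for a difference in shares they combine the Wilson intervals of both shares. For a gene at 0 the fold is a bound at 3 counts per library. Depth per subcluster ran from 64399 to 34499397 UMIs. No test was run with 1 library per time. A list member was counted from 20 UMIs over both libraries of the pair in question. Silk and sponge medians of a list can thus cover different members, as with 16 and 22 interferon genes in F1. The scripts were tested on simulated counts.

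Genes are named by rank of the smallest change over subclusters, by the 5 extremes of each subcluster, by the largest composition part, by opposite calls and by membership of 27 lists, leaving aside predicted genes, sex-linked genes, antigen receptor genes and those of ribosomes, mitochondria and haemoglobin, except where a name is said to be chosen after its values. Some genes that entered the counts are not reported here by name. The members, lists, markers and rules were chosen with earlier results of these data known. Alternatives varied the offset, the filter, scaling, weighting of cells, high mitochondrial and high UMI cells, depth, cell minimum, fold, and stratum weights. RefSeq promoter windows were matched by symbol.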

Additional observations from a re-analysis of the deposited data

Results flagged for a closer look

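The differences given here were not tested, since each library stands alone. Several genes passed 2-fold in opposite directions in different subclusters of silk. Apoe had a log2 ratio of 2.47 in F1 and -3.31 in C9, Ctsk 1.63 in F1 and -1.61 in C6, and Ogn 1.69 in the low-quality fibroblast label and -1.61 in F2. Plac8 had 1.71 in F1 and -2.04 in F2, and Pltp 1.68 in F1 and -2.03 in C9.

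Others passed 2-fold in opposite directions in silk and in sponge. Ctsk in C6 had -1.61 in silk and 2.04 in sponge. Cxcl9 in C9 had 4.65 and -3.09, and Cxcl10 in C9 2.59 and -3.39, and in silk both rest on 1 cell at 4 weeks. Mmp3 in F2 had 1.14 and -1.29. In the low-quality label Tm4sf1 had -2.26 and 1.17, and Zbtb20 1.17 and -1.18.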

How the results depend on the processing

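No paired analysis was possible because each time point is 1 library and the labels carry no replicate numbers. The 5 transcripts lower in all 8 subclusters all passed under 8 of the 11 alternatives that keep the 2-fold limit and the 8 subclusters. At 200 CPM 3 were left (Gm10076, Gm42418 and Lars2) and with the deeper library thinned 2 (AY036118 and Gm42418), where fewer genes are measured, and 4 with counting intervals that leave out no change. Counts of 2-fold genes moved with the offset and filter by construction. With an offset of 50 CPM they were 22 in C3 (51 as reported), 50 in C6 (112), 24 in C7 (53), 100 in C9 (242), 169 in F1 (336), 174 in F2 (345) and 97 in N1 (249), and with 1 CPM 95 in C3. With no filter they were 141, 193, 671, 556, 539, 4519 and 1958 in C3, C6, C9, F1, F2, the low-quality label and N1. At 200 CPM they were 16, 52, 22, 79, 148, 129 and 99 in C3, C6, C7, C9, F1, F2 and N1. With every cell weighted equally C3 had 85 and C6 234, and the cause was not tested. Thinning left 161 in C9, 79 in the low-quality label and 32 in N1, with fewer genes measured. N1 had 157 with a counting interval that leaves out no change, an alternative added after seeing the data.

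Shared myeloid calls went from 6 to 31 at 1.5-fold and to 11 with C9 left out, by a minimum of 100 cells or by name, when Cd74, H2-Eb1, Fosb, Vcan and Ftl1-ps1 joined. Shared fibroblast calls went from 13 to 60 without a filter, 49 at 1.5-fold and 57 without the low-quality label. Composition counts were 0 in the myeloid class with cell shares and with every label its own stratum (added after seeing the data), and 3 at 1.5-fold. In fibroblasts they were 65 with the 2-week shares and 66 at 1.5-fold, and in neutrophils 12 with either library's shares, 0 with cell shares, 19 at 1.5-fold and 44 with every label its own stratum. Within counts at 1.5-fold were 175, 522 and 833. As shares of all cells of the library the differences were 2.86 points in C3, -4.25 in C6, -17.1 in C7, 1.48 in C9, 5.70 in F1, -1.37 in F2, 2.18 in the low-quality label and -2.69 in N1, where the sign turned from 7.07 points of neutrophils. Cxcl10 in C9 reversed to -2.86 without the 10% of cells with most UMIs and to -1.23 without its richest cell, an alternative added after seeing the data. Without that cell Fcgbp in F2 had 0.10, and Ccl5 in C6, 2.50 as reported, had 0.54.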
